A study of Mus musculus with 16 samples.

Results

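In 309 of 55617 genomic regions acetylated in mouse liver, an H3K27Ac peak was called in nearly all WT livers, in at most 1 inflamed Mdr2-/- liver and again in most HCC nodules. These regions were selected by their own peaks. Overlapping or adjoining H3K27Ac peaks of 15 animals on chromosomes 1 to 19 were merged into regions, and a region was kept when it had a peak in at least 4 of 5 WT livers, in at most 1 of 5 inflamed livers and in at least 3 of 5 nodules. They made up 0.556% of all merged regions and covered 1.67 Mb. They are called lost-and-regained regions here, although each animal was measured at a single time, so that the words name a pattern over different animals and not a course within 1 liver.

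WT livers came from mice with the genotype Mdr2-WT, whose strain is FVB.129P2 in the sample labels and FVB/NJ in the methods of the study. Inflamed livers and nodules came from FVB.129P2-Abcb4tm1Bor/J mice with the genotype Mdr2-KO, which lack the transporter in every tissue from birth. By the labels, WT livers and nodules came from mice aged 14 to 19 months. Inflamed livers came from mice aged 7 to 8 months, so that the younger age and the inflamed state cannot be told apart. The text of the study gives a narrower age range for the nodules. By the labels, all 15 animals had received clodronate liposomes at 50 μg per g of body weight for 48 h before tissue collection. The methods of the study give a different amount, not per body weight. These liposomes deplete macrophages, and no group without them is compared here. The methods of the study name mice of both sexes, but sex is not stated for single animals. Peaks on chromosome Y were listed only for WT 1, with 15, and for HCC nodule 1, with 13. Sex may therefore be unequal between the groups, which was not tested.

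Mdr2 is the mouse name of ABCB4, the hepatocyte transporter that moves phosphatidylcholine into bile. Without phosphatidylcholine, bile acids are not kept in mixed micelles and damage the liver, which becomes inflamed and later grows tumours. H3K27Ac is an acetyl group on lysine 27 of histone H3 that is found at active promoters and enhancers, the DNA elements from which and through which genes are transcribed. A region that has a peak in one tissue and none in another is a candidate for an element used in the first and not in the second. In whole tissue, fewer cells that carry the mark and less of the mark per cell cannot be told apart.

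The files held peak positions and scores in the mm9 build, not reads per region, and the depth of each library is unknown. WT lists held 25867 to 29618 autosomal peaks, inflamed lists 35188 to 40063 and nodule lists 26235 to 41863. A deeper library can yield more peaks, so a missing peak means that none was called, not that the mark was absent. No gene or DNA sequence in mm9 was used here; regions are therefore given by position alone, and the labelled tissues were not checked against marker genes. Across groups, WT 5 and HCC nodule 1 stood out by having and lacking peaks in the same lost-and-regained regions, with values given further on, and the main counts are given with and without this pair.

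In the full peak lists, whose lengths differed between groups, loss of a peak in inflamed livers was less common than gain. A peak in at least 4 WT and at most 1 inflamed livers, the definition of a lost region, was found in 1117 regions or 2.01% of all. The opposite change, a peak in at most 1 WT and at least 4 inflamed livers, was found in 6947 regions or 12.5%, and the inflamed lists were also the longest on average. Of the 1117 lost regions, 309 or 27.7% had a peak in at least 3 nodules (95% Wilson interval 25.1 to 30.4, for the counting error over regions only), and 808 did not. Gained regions that most nodules lacked, with a peak in at most 2 of them, numbered 4383 or 7.88% of all regions. The rule fixes these numbers, and no test was made of them.

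Few lost regions had a peak in most nodules. No nodule had a peak in 184 lost regions, 1 nodule had one in 291, 2 nodules in 333, 3 in 189, 4 in 99 and all 5 in 21. At least 3 nodules had a peak in 44.7% of all merged regions, in 36.9% of the gained regions and in 38.5% of 1773 regions that had a peak in 4 to 6 of the 10 WT and inflamed livers and were neither lost nor gained. The share of 27.7% for lost regions was thus below each of them. With 1 nodule left out and a peak in at least 2 of the other 4 required, the share of lost regions was 50.8%, 33.9%, 50.1%, 53.3% and 39.9% without HCC nodule 1 to 5. The share of gained regions was then 56.0%, 47.4%, 39.5%, 53.0% and 57.7%, and that of middling regions 57.1%, 49.0%, 50.2%, 57.9% and 52.8%. Lost regions thus stood above gained regions without nodule 3 or 4 and close to middling regions without nodule 3. Per nodule, the percentage of lost regions with a peak differed from that of the 1773 middling regions by -4.24 points in HCC nodule 1, 8.50 in nodule 2, -23.3 in nodule 3, -9.45 in nodule 4 and 3.22 in nodule 5. The mean difference was -5.05 ± 12.3 points (SD, n = 5; exact sign-flip permutation test, two-sided, p = 0.438), which was within the spread between nodules. This comparison was chosen after the data were seen.

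**Figure D1:**
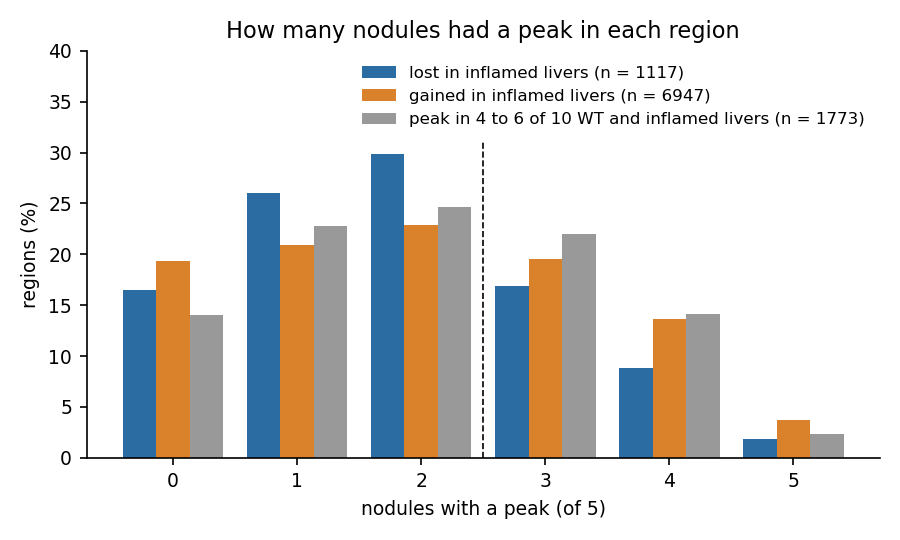
The x axis is the number of nodules with a peak, from 0 to 5, and the y axis the percentage of regions, for the 1117 lost regions (blue), the 6947 gained regions (orange) and the 1773 regions with a peak in 4 to 6 of the 10 WT and inflamed livers (grey). The dashed line marks the threshold of 3 nodules, and 309 lost regions (27.7%) lie to its right.

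Taken separately, the WT threshold and the nodule threshold were each met with no animal to spare by most lost-and-regained regions. All 3 thresholds were met in that way by 45 regions. A peak was found in exactly 4 WT livers in 200 of them and in all 5 in 109. None of the inflamed livers had a peak in 182, and 1 inflamed liver had one in 127. Exactly 3 nodules had a peak in 189 regions, 4 in 99 and all 5 in 21. The commonest combination, 4 WT livers, no inflamed liver and 3 nodules, held 85 regions. The full pattern of 5 WT livers, no inflamed liver and 5 nodules was met by 6 regions, and by 25 when 4 nodules were enough. Just outside the thresholds, with the rest of the rule met, 180 regions had a peak in 3 WT livers, 161 had a peak in 2 inflamed livers and 333 had a peak in 2 nodules.

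The animals of a group differed widely in how many of the 309 regions had a peak. Among WT livers, a peak was found in 249 regions in WT 1, 305 in WT 2, 308 in WT 3, 296 in WT 4 and 187 in WT 5. Among inflamed livers it was found in 6, 18, 7, 11 and 85 regions in inflamed 1 to 5. Among nodules it was found in 143, 285, 209, 180 and 251 regions in HCC nodule 1 to 5. Inflamed 5 had several times as many as any other inflamed liver, WT 5 had the fewest of the WT livers, and HCC nodule 1 had the fewest of the nodules. Of all merged regions, WT livers had a peak in 39.8% to 44.9%, with 40.8% in WT 5. Inflamed livers had one in 52.3% to 60.5%, with 52.3% in inflamed 5. Nodules had one in 37.0% to 64.3%, with 37.0% in HCC nodule 1, so that this nodule was lowest in all regions too. That the inflamed livers lay below the others follows from the rule.

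**Figure D2:**
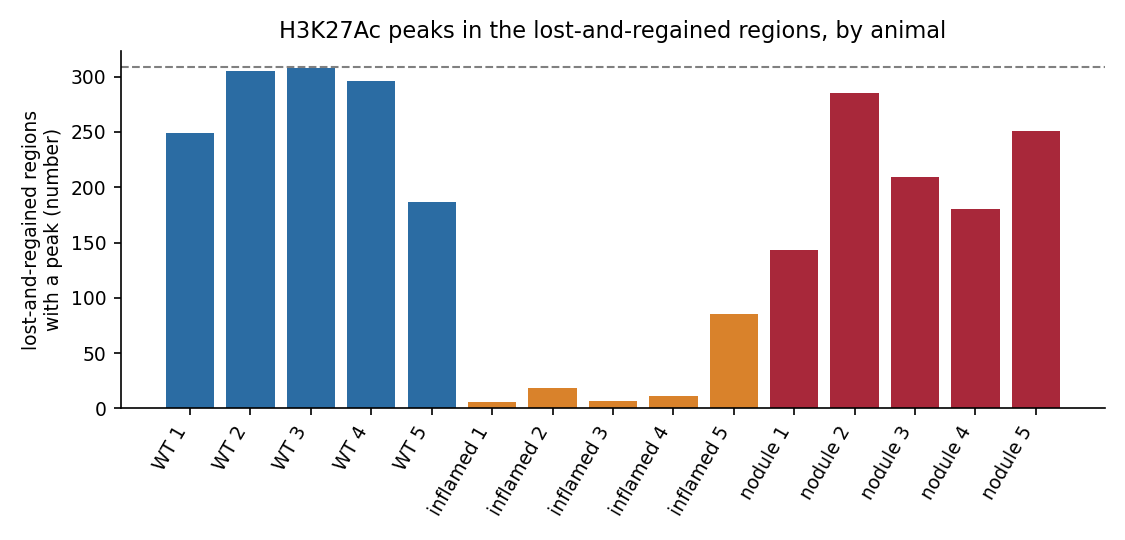
Bars give, for each of the 15 animals on the x axis, the number of lost-and-regained regions with a peak (y axis), with WT livers in blue, inflamed livers in orange and nodules in red. The dashed line marks all 309 regions, and the lowest nodule, with 143, stands above the highest inflamed liver, with 85, as the rule that chose them favours.

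The same order held for the length under peaks. Peaks covered 930 ± 206 kb of the 1.67 Mb in WT livers, 56.6 ± 81.8 kb in inflamed livers and 724 ± 257 kb in nodules (SD, n = 5 each). Inflamed 5 alone had 202 kb, against 11.5 to 35.9 kb in the other inflamed livers. Where a region had a peak, its median covered length was 2706 to 3393 bp in WT livers, 1671 to 2201 bp in inflamed livers and 2439 to 3369 bp in nodules. WT livers and nodules overlapped in this length, and every inflamed liver lay below both. The rule admits an inflamed peak only where the other 4 inflamed livers have none, which favours short and weak inflamed peaks here, so that no test was made.

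The peaks in these regions were weak for their lists. Each peak was ranked by its score within its own list, as a percentile counted from the weakest peak upward, with equal scores given their mean rank. The median percentile of peaks in the 309 regions was 24.3 to 35.0 in WT livers, 22.2 to 38.2 in nodules and 7.94 to 12.8 in inflamed livers, whose peaks entered only as the single one of their group. Between 77.0% and 85.9% of the WT peaks and between 66.0% and 88.5% of the nodule peaks lay below the 50th percentile. At or above the 75th percentile lay 3 to 7 peaks per WT liver, 0 to 18 per nodule and none in an inflamed liver.

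Of the 127 regions with a peak in 1 inflamed liver, that liver was inflamed 5 in 85, or 66.9%. Inflamed 2 accounted for 18, inflamed 4 for 11, inflamed 3 for 7 and inflamed 1 for 6. These single peaks had a median percentile of 10.2. The 2 with the highest percentile were both in inflamed 5, at chr16:23143025-23146959 with 53.5 and at chr13:76112000-76116249 with 51.4. At the first of them WT 1 to 4 had percentiles of 34.3, 69.3, 69.7 and 75.5, WT 5 had no peak, and the nodules with a peak, 2, 3 and 5, had 48.8, 18.7 and 13.6. Inflamed 5 also had a peak in 77.7% of the gained regions, against 93.6% to 98.9% in the other inflamed livers, so that it was the inflamed liver least unlike WT in both directions.

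To measure the pattern in animals that had no part in choosing the regions, each animal was left out in turn, regions were merged and chosen over the other 14 with the same number of exceptions allowed per group, and the percentage of chosen regions with a peak in the left-out animal was taken. For a left-out nodule, a peak in at least 2 of the 4 others was thus enough, which is looser than the full rule. Left-out WT livers had a peak in 57.5%, 93.3%, 94.8%, 81.2% and 42.3% of the regions for WT 1 to 5. Left-out inflamed livers had one in 16.5%, 19.6%, 16.8%, 11.6% and 49.3% for inflamed 1 to 5. Left-out nodules had one in 25.4%, 75.0%, 37.4%, 30.8% and 59.5% for HCC nodule 1 to 5. All nodules lay above inflamed 1 to 4, and inflamed 5 lay above 3 of the nodules and above WT 5. Of all merged regions, the same animals had a peak in 39.7% to 44.8% for WT, 52.3% to 59.9% for inflamed livers and 36.4% to 61.9% for nodules. Left-out inflamed livers thus had a peak in the chosen regions less often than in all regions, in 5 of 5 animals, and WT livers more often, in 5 of 5. Nodules 2 and 5 had one more often than in all regions and nodules 1, 3 and 4 less often.

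The mean percentage was 73.8 ± 23.1 in WT livers, 22.8 ± 15.1 in inflamed livers and 45.6 ± 20.9 in nodules (SD, n = 5 each). WT livers exceeded inflamed livers by 51.0 points (exact permutation test, two-sided, p = 0.0159, Benjamini-Hochberg adjusted p = 0.0476 over 3 comparisons). Nodules exceeded inflamed livers by 22.8 points, which did not pass the test (exact permutation p = 0.0952, adjusted p = 0.0952), and WT livers exceeded nodules by 28.2 points, which did not pass either (exact permutation p = 0.0794, adjusted p = 0.0952). With 5 animals against 5 the smallest possible p is 0.00794. Regions were chosen under the true labels, with exceptions that differed between groups, and each animal helped to choose the regions for the others. The percentages are thus not independent. The p values of left-out shares, here and further on, are a guide and not exact error rates.

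The comparison of nodules with inflamed livers turned on inflamed 5 and on how strictly the regions were chosen. It also turned on whether each percentage was set against that of all regions. Without inflamed 5, nodules exceeded inflamed livers by 29.5 points (exact permutation, adjusted p = 0.0357). In this paragraph, leaving out an animal dropped only its own percentage from its group mean. The regions for the other animals were still chosen with it. When a left-out animal's own group had to have a peak in all 4 other WT livers, in none of the 4 other inflamed livers or in at least 3 of the 4 other nodules, the difference was 44.6 points (exact permutation, adjusted p = 0.0238). Such a choice favours a larger difference, since each group's own threshold moved in the direction compared. With each animal's percentage divided by its percentage of all regions, the mean ratios differed by 0.516 (exact permutation, adjusted p = 0.0476). With the percentages of WT 5 and HCC nodule 1 dropped, nodules exceeded inflamed livers by 27.9 points (exact permutation, adjusted p = 0.0833). Both animals still helped to choose the regions, so the comparison was not repeated without the pair. The difference between WT and inflamed livers kept its direction with any animal left out, at 45.8 to 58.9 points, and lost its call without any 1 of WT 1 to 4 (exact permutation, adjusted p = 0.0714) or of inflamed 1 to 4 (exact permutation, adjusted p = 0.0952).

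**Figure D3:**
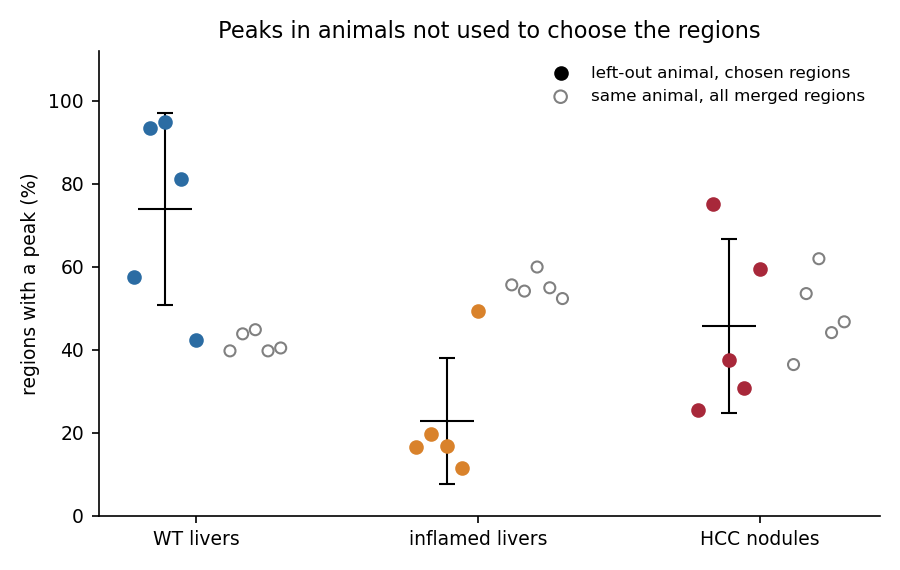
Filled points give the percentage of chosen regions with a peak in each animal when that animal was left out of the choice, with black lines for the mean and SD of 5 animals per group, and open grey points the percentage of all merged regions with a peak in the same animals (y axis, %; groups on the x axis). Inflamed 5, at 49.3%, lies among the nodules, while the other inflamed livers lie between 11.6% and 19.6%.

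Nodules differed in how much of the WT pattern they held. Of the 1117 lost regions, HCC nodule 2 had a peak in 62.3% and HCC nodule 5 in 45.7%, and nodules 1, 3 and 4 had one in 21.9%, 29.7% and 21.6%. In the 6947 gained regions, HCC nodule 3 had a peak in 69.9%, nodule 2 in 47.8%, and nodules 1, 4 and 5 in 24.8%, 32.5% and 23.5%. WT livers had a peak in 59.5% to 99.4% of the lost and 0.605% to 24.5% of the gained regions, and inflamed livers in 2.15% to 22.8% and 77.7% to 98.9%. Of all merged regions, HCC nodule 1 to 5 had a peak in 37.0%, 54.6%, 64.3%, 45.1% and 46.3%. Nodule 3 was thus high and nodule 1 low in all regions as well, and the part of list length was not tested. By these percentages alone, HCC nodule 2 was nearest to WT livers in the lost regions and HCC nodule 5 in the gained regions. HCC nodules 4 and 1 were nearest to the inflamed livers in the lost regions and HCC nodule 3 in the gained regions.

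**Figure D4:**
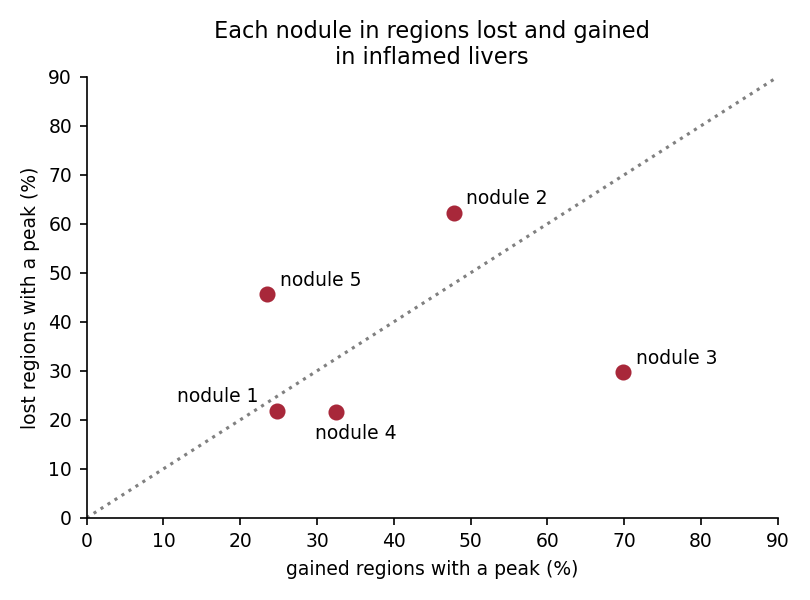
Each point is 1 nodule, with the percentage of the 6947 gained regions with a peak on the x axis and of the 1117 lost regions on the y axis, and the dotted line marks equal percentages. Nodules 2 and 5 lie above the line, with 62.3% and 45.7% of the lost regions, and nodule 3 lies far below it, with 29.7% of the lost and 69.9% of the gained regions.

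The combinations of nodules that made up the 309 regions followed these levels. Nodules 2, 3, 4 and 5 without nodule 1 shared 52 regions, the largest set. Nodules 2, 3 and 5 shared 49, nodules 1, 2 and 5 shared 42, and nodules 2, 4 and 5 shared 35. All 5 nodules shared 21. Only 24 regions lacked a peak in HCC nodule 2, and each of the 3 largest sets of 3 nodules held both nodule 2 and nodule 5.

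**Figure D5:**
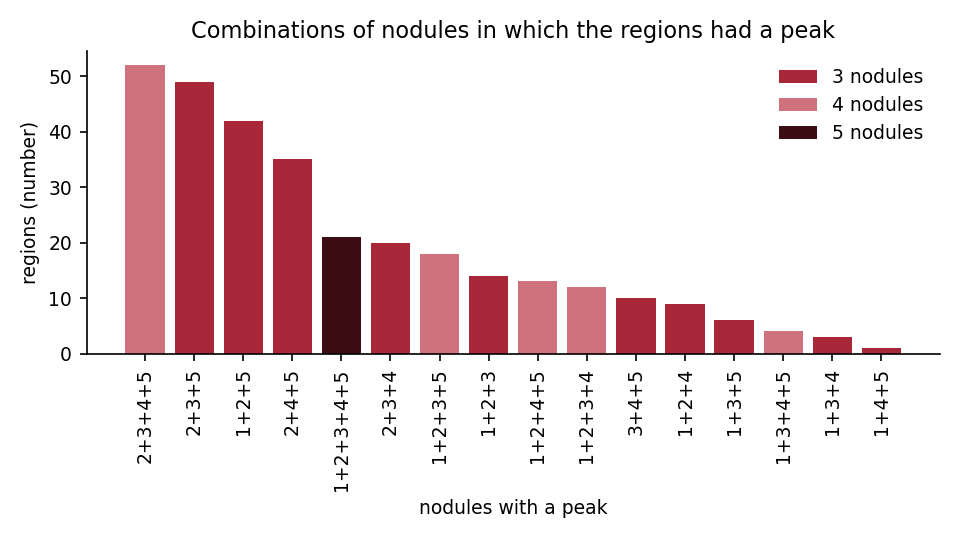
Bars give the number of lost-and-regained regions (y axis) for each combination of nodules with a peak (x axis, nodules by number), shaded by whether 3, 4 or 5 nodules had one. Nodule 2 is in each of the 10 tallest bars, from 52 regions down to 12.

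Whether different nodules had peaks in the same lost regions was measured by splitting, for each nodule, the lost regions by the other 4 nodules. Where at least 3 of the others had a peak, the nodule itself had one in 29.1%, 82.9%, 51.7%, 44.2% and 65.1% of regions for HCC nodule 1 to 5. Where at most 1 of the others had a peak, it had one in 18.5%, 55.8%, 22.1%, 11.7% and 38.6%. The first percentage was higher in 5 of 5 nodules, by 25.2 ± 8.57 points (SD, n = 5; exact two-sided sign-flip permutation, p = 0.063 and no lower value possible with 5 nodules). The same difference was 37.5 points in gained regions and 62.4 points in all merged regions, and whether these differ from the 25.2 points was not tested.

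WT livers did not hold these regions equally. Of the 309, WT 1 to 4 without WT 5 had a peak in 122, all 5 WT livers in 109, and WT 2 to 5 without WT 1 in 60. HCC nodule 1 had a peak in 8.20% of the 122 regions in which WT 5 had none, and in 71.1% of the 187 in which WT 5 had one. The rule has a part in these values, since it requires at least 3 of the other nodules where nodule 1 lacks a peak. Lost regions were chosen without nodules, and among all 1117 of them HCC nodule 1 had a peak in 3.10% of the 452 that WT 5 lacked and in 34.7% of the 665 that WT 5 had. Nodules 2 to 5 had a peak in 62.8%, 31.4%, 23.0% and 54.4% of the 452 and in 62.0%, 28.6%, 20.6% and 39.8% of the 665. WT 5 also had a peak in 24.5% of the gained regions, against 0.605% to 5.05% in the other WT livers. Without WT 5 and HCC nodule 1, and with the same number of exceptions allowed per group, 1925 regions were lost and 894 of these, or 46.4%, had a peak in at least 2 of the 4 remaining nodules, 308 of the 309 regions among them. That rule is looser than the full one. What this pair of libraries shares was not tested, and both were used under their labels. The study set some H3K27Ac samples aside as outliers in a principal component analysis without naming them in the text used here, and all lists were used here.

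In nearly all of the regions nodule peaks overlapped WT peaks, as they did elsewhere. Of the regions with a nodule peak, that peak overlapped a WT peak in 140 of 143 for HCC nodule 1, 285 of 285 for nodule 2, 205 of 209 for nodule 3, 179 of 180 for nodule 4 and 251 of 251 for nodule 5. By length, 83.1% to 93.0% of the nodule peaks lay under WT peaks. In 306 of the 309 regions at least 3 nodules overlapped a WT peak, and in no region did every nodule peak miss them. Nodule peaks overlapped a WT peak in every lost region not regained that had one, and in at least 99.9% of all regions with a peak in at least 4 WT livers and the nodule. By length, 87.3% to 96.8% of nodule peaks lay under WT peaks in the latter. The inflamed peaks in the 309 regions overlapped a WT peak in 100% of cases in each inflamed liver. Since regions were formed by merging overlapping peaks, such overlap is favoured by their construction.

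Lost-and-regained regions were wider than lost regions that were not regained, with a median width of 4515 bp, from 1680 to 18580 bp, against 3755 bp. The nodule peaks widen the merged regions, so that this difference is partly fixed by the rule. The WT peaks themselves, whose widths the rule did not use, were wider in the regained regions in 5 of 5 WT livers, by 50.0, 206, 18.0, 114 and 328 bp for WT 1 to 5. A nodule peak joins a region by 1 bp of overlap, which a wider WT peak makes easier. WT width was thus not independent of the split, and its part was not tested. The mean difference was 143 ± 126 bp (SD, n = 5; exact two-sided sign-flip permutation, p = 0.063 and no lower value possible with 5 animals). Their median score percentile was higher in 4 of 5 WT livers, by 2.39 ± 2.67 points (SD, n = 5; exact sign-flip permutation test, p = 0.125). Neither difference could pass 0.05 in this design.

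Regained regions were found at shorter distances from DNA acetylated in every animal, given here as a description. The median distance to the nearest of the 11874 regions with a peak in all 15 animals was 11893 bp for the 309 regions, 26768 bp for the 808 that were not regained and 40861 bp for 42626 regions that were neither lost nor present in all animals. Within 10000 bp of such a region lay 44.0%, 31.6% and 22.8% of them. The nearest region with a peak in at least 4 inflamed livers was at a median of 6210 bp for the 309 regions, 9690 bp for those not regained and 10544 bp for the other set. Per nodule, lost regions with a peak in that nodule lay at medians of 14805, 14960, 17810, 12975 and 13921 bp from a region present in all animals, for HCC nodule 1 to 5. Lost regions without a peak in it lay at 23505, 35811, 22257, 23267 and 30172 bp. The distance was shorter in 5 of 5 nodules, by a mean difference of -12108 ± 6466 bp (SD, n = 5; exact two-sided sign-flip permutation, p = 0.063, no lower value being possible), a comparison chosen after the data were seen. The wider regions reach a little nearer to their neighbours, and the part of width in this difference was not tested.

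The 309 regions were scattered over the genome. The median distance from 1 region to the nearest other of the 309 was 1444685 bp, and 265 had no other within 100000 bp. The remaining 44 formed 16 pairs and 4 groups of 3. Chromosome 16 had the highest share of its merged regions among them, 21 of 2194 or 0.957%, and chromosome 12 the lowest, 7 of 2222 or 0.315%. Of the lost regions, 42.2% on chromosome 15 and 14.6% on chromosome 12 were regained. Numbers per chromosome were small and no test of them was made.

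The longest group of 3, at chr8:107651359-107804625, spanned 153267 bp and held 12 merged regions, 4 of them with a peak in all 15 animals. The next, at chr16:26614612-26725602, spanned 110991 bp and held 7 merged regions, none of them with a peak in all animals. In each of its 3 members WT 1 to 4 and HCC nodules 2 and 5 had a peak, nodule 3 and the inflamed livers had none, and WT 5 had one only in the last. The group at chr1:193404481-193513347 spanned 108867 bp, and its 3 members had peaks in WT 2 to 4 and in nodules 2 and 4, with no inflamed peak.

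The 6 regions with a peak in all WT livers, all nodules and no inflamed liver showed the pattern at its fullest. They are described here by the length under peaks in each animal, and the inflamed livers had 0 bp in each. At chr8:126865673-126872110, the region in which the weakest peak ranked highest, WT 1 to 5 had 4460, 4718, 5129, 4512 and 6230 bp under peaks. HCC nodule 1 to 5 had 5448, 5390, 2570, 4531 and 5551 bp there. Nodule 3 was the only one below the WT range, and it also had the lowest percentile, 28.9, against 48.2 to 70.0 in WT livers.

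At chr15:88656893-88664689, WT 1 to 5 had 6967, 7565, 6931, 7228 and 6986 bp and HCC nodule 1 to 5 had 6859, 6625, 7142, 7315 and 6787 bp. WT livers and nodules overlapped in covered length. Percentiles there were 35.0 to 62.6 in WT livers and reached 86.0 in nodules 3 and 4 but 4.50 in nodule 5. The nearest region present in all 15 animals was 647 bp away.

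At chr19:47501260-47508875, WT 1 to 5 had 5845, 6191, 6372, 6142 and 5911 bp and HCC nodule 1 to 5 had 5970, 7415, 6222, 6249 and 5747 bp. The groups overlapped again in length, although the percentiles ran from 6.70 to 43.4 in WT livers and from 8.34 to 70.1 in nodules. A region present in all animals lay 613 bp away.

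At chr19:4427049-4431749 nodules ranked above WT livers. WT 1 to 5 had percentiles of 6.18, 31.9, 11.2, 6.74 and 20.9, and HCC nodule 1 to 5 had 50.7, 53.4, 46.9, 61.8 and 58.2. Covered lengths were 1679 to 2870 bp in WT livers and 2410 to 4701 bp in nodules. A region present in all animals lay 107 bp away, and with peaks up to 500 bp apart merged this region no longer met the rule.

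At chr3:130948028-130954583 WT livers mostly ranked above nodules, with overlap. WT 1 to 5 had percentiles of 61.2, 59.1, 51.6, 65.7 and 34.0, and HCC nodule 1 to 5 had 51.1, 52.7, 0.0717, 33.1 and 32.9, so that the peak of nodule 3 was among the weakest of its list. Covered lengths overlapped, at 3550 to 4877 bp in WT livers and 3444 to 6252 bp in nodules. At chr11:95305585-95313012 WT 1 had 6739 bp under peaks and the other WT livers 2199 to 3131 bp, with 1699 to 4378 bp in nodules.

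Among regions with at least 4 nodules and no inflamed peak, the 8 further ones with the highest lowest percentile were each missing 1 or 2 animals. At chr16:18125297-18138048 and chr13:35051835-35057790 the missing animals were WT 1 and HCC nodule 5, and the same was true at chr17:28184255-28191468. At chr1:55135233-55139037, chr15:55026372-55033083, chr2:180998728-181017307 and chr2:119404963-119409159 they were WT 5 and HCC nodule 1. At chr1:59165871-59172841 all WT livers had a peak and HCC nodule 4 had none. In the 4 regions without WT 5 and nodule 1, nodules 2 to 5 had percentiles of 15.5 to 65.2 and WT 1 to 4 of 16.3 to 62.7.

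The 3 widest regions were not evenly covered. At chr2:180998728-181017307, 18580 bp wide, HCC nodule 5 had the whole width under peaks, and the other nodules with a peak had 10228, 2736 and 6075 bp. WT 1 to 4 had 3718, 9677, 9553 and 8239 bp. At chr1:166135306-166152124, HCC nodule 5 had 16689 bp and the other nodules 1905 to 4393 bp, against 10416 to 15780 bp in WT 1 to 4, and inflamed 5 had 4897 bp. At chr8:122445948-122462391 all WT livers had peaks, over 8100 to 15917 bp, nodules 3 and 4 had none, and inflamed 5 had 2671 bp. In regions of this size a nodule with a short peak counted the same as one with full cover.

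Which regions met the rule depended on the peaks that were allowed to count. When all lists were cut to their 25867 best-scoring peaks, 647 regions met it, and 117 of the 309 overlapped one of them. With the top 50% of each list, 146 met it, and 5 of the 309 overlapped one of these. With peaks required to cover 50% of a region, 626 met it, and 142 of the 309 overlapped one of these. All 6 regions with the full pattern overlapped such a region with equal lists, and 1 of them, at chr15:88656893-88664689, with the top 50%. The share of lost regions that were regained was 27.2% with equal lists and 25.7% with the top 50%. That region and those at chr6:142709529-142721381, chr10:21067953-21072512 and chr12:85127972-85134964 overlapped a region that met the rule under each of these 3 settings and with peaks up to 500 bp apart merged, and the last 3 were singled out after their values were seen. At the last, all 5 WT livers and 3 nodules had a peak, no inflamed liver did, and the lowest percentile was 58.8.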

How the data were processed

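H3K27Ac ChIP-seq peak lists were analysed, 1 per animal, for 5 livers of each of the WT and inflamed Mdr2-/- groups and for 5 HCC nodules. The control sample, whose title names it as input of Mdr2-WT liver, was not analysed here. Per the labels, Bowtie 0.12.7, MACS 1.4 and the build mm9 were named in the submitters' processing notes. The authors deposited for each peak its position and a score on a scale not given in the sources used here, from 50 upward, with 9.65% to 24.6% of a list tied at 3100. Positions, a deposited quantity in bp, are printed counting from 1. Scores served only to rank peaks within a list. Read depth is unknown.

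Peaks on chromosomes 1 to 19 that overlapped or adjoined were merged, and 1 bp of overlap counted as a peak in a region. Members, lists and tests were chosen with earlier results of these data known. Group means of left-out shares were compared by exact permutation over 252 assignments with Benjamini-Hochberg adjustment, the regions being kept as chosen under the labels. Paired differences were tested by exact sign flips over 32. Groups came from the sample labels, and replicate numbers only name animals. Regions named were those with the full pattern, the 8 next by lowest percentile among regions with at least 4 nodules and no inflamed peak, the 3 widest, the 3 longest groups within 100000 bp, and the 2 with the strongest inflamed peak. Merging, tests and rule were tested on simulated data. Alternatives were equal lists, the top 50% by score, 50% cover, merging over 500 bp, bins of 1000 bp, other thresholds, chromosome X and leaving out animals. Shares without 1 nodule, peak overlap outside the 309 regions and the split of lost regions by WT 5 were added after the data were seen. Python 3.11.15, NumPy 2.4.6, SciPy 1.17.1 and matplotlib 3.10.9 were used. Genes and sequences of mm9 were not used here.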

Additional observations from a re-analysis of the deposited data

Results flagged for a closer look

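In 4 of 18 groups of values examined, 1 animal stood apart from the other 4 of its group by Dixon's test. For independent values chance flags about 1 group in 20, and several of these values describe the same regions. The rule admits a peak in at most 1 inflamed liver per region, so the inflamed values in the lost-and-regained regions exclude one another. That rate therefore does not hold for them, and these flags are a description only. Inflamed 5 had a peak in 27.5% of the lost-and-regained regions, against 1.94% to 5.83% in the other inflamed livers. It had 202 kb under peaks there, against 11.5 to 35.9 kb. When it was left out of the choice, it had a peak in 49.3% of the chosen regions, against 11.6% to 19.6%. WT 2 had a median of 3393 bp under peaks in regions with a peak, against 2706 to 2885 bp in the other WT livers.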

How the results depend on the processing

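Under alternatives 8 results were recomputed: the count, the regained share, the 3 comparisons of left-out shares, the sharing among nodules, and WT peak width and percentile. None of those with a direction reversed. The count and the regained share have no direction, and their values moved widely. Other values of the report were not recomputed under them. The 309 regions became 647 with equal lists, 146 with the top 50% of scores, 626 with 50% cover, 2779 runs of bins, 25 with all WT, no inflamed and at least 4 nodules, and 894 without WT 5 and HCC nodule 1, a setting chosen after the data were seen. Without 1 animal they ranged from 324 to 598, with the same number of exceptions allowed, which loosens the rule and favours higher counts. Without HCC nodules 1, 3, 4 and 5 they were 568, 561, 598 and 474, since 2 of 4 nodules then sufficed. Equal lists drop the weakest peaks of the longer lists, and bins split regions. For the other counts the cause was not tested. The regained share of 27.7% became 31.8% with 50% cover, 35.8% in bins, 46.4% without both animals, and 23.6% to 53.3% without 1 animal, with 50.8%, 50.1% and 53.3% without HCC nodules 1, 3 and 4.

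In the comparisons of left-out shares, leaving out 1 animal dropped its percentage from its group mean, and the regions were not chosen again. WT minus inflamed lost its call with the top 50% of scores (47.2 points) and ranged from 45.8 to 58.9 without 1 animal. WT minus nodules passed with equal lists (34.4 points) and ranged from 23.0 to 36.1. It also passed as a difference of mean ratios, each animal's share being divided by its share of all regions (0.822). Nodules minus inflamed passed with stricter choice (44.6 points) and as such a difference of mean ratios (0.516), and ranged from 15.5 to 29.5. The cause was not tested. The WT peak width difference of 143 bp became 226 bp with equal lists and 707 bp with 50% cover, and the percentile difference of 2.39 became 5.84 and 13.5. With 50% cover the length under WT peaks enters the rule, which shapes the width difference there. No paired analysis was possible between groups because replicate numbers are only names and each animal gave 1 library. Unknown depth limits every missing peak.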
